A study of Arabidopsis thaliana with 27 samples.

Results

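The ground tissue of the Arabidopsis root was set against the other tissues of a root expression map. The comparison used 15 of the 27 ATH1 arrays of the series. They are the 3 arrays of J0571, a GFP line that marks ground tissue, and 3 arrays of each of the 4 other marker lines, J3411, SCR, WOL and GL2. Arrays were taken by the line named in their titles, and the 12 arrays of root segments from 3 developmental stages were left out. The level in J0571 was set against an average of the 4 other lines in which each line counted equally.

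By its labels, J0571 marks endodermis, cortex and quiescent centre in the Columbia background. J3411 marks the lateral root cap together with epidermis, in C24. SCR marks endodermis and quiescent centre, in Landsberg, and its replicate 1 carries no tissue label. WOL marks the stele, with a marker that fades from the elongation zone, while GL2 marks the hairless files of the epidermis, called atrichoblasts; both are Columbia. Endodermis and quiescent centre are therefore marked in J0571 and in SCR, while cortex is marked in J0571 alone. All lines carried GFP, and seedlings received 16 h of light and 8 h of dark on MS medium containing 4.5% sucrose. As background, J0571 and J3411 belong to a collection of GAL4 enhancer-trap lines, in which a reporter shows the activity of whatever enhancer lies near its insertion, and that collection was made in C24. The labels do not say how marked cells were separated, nor whether the 3 arrays of a line came from separate cultures, so the p-values measure only the spread between these arrays.

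Cortex and endodermis are the concentric layers of ground tissue, and both descend from the same stem cells through an asymmetric division. SHORT-ROOT protein moves outward from the stele, and SCARECROW and the zinc finger protein JACKDAW (JKD) hold it in the layer that becomes endodermis. The endodermis then builds the Casparian strip, a lignin band that seals the wall between neighbouring cells, while the cortex lies outside it as a storage and transport tissue. The quiescent centre is the small group of rarely dividing cells around which the root stem cells are arranged.

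Values are the deposited MAS5 signals of single probe sets, on a linear scale with a 2% trimmed mean of 100.01 on every J0571 array. Background is taken as a signal of 14.8, which 95% of readings from 12 bacterial control probe sets with no added target fell under, and 69.4% to 73.1% of probe sets lay above it on the J0571 arrays (61.9% to 77.1% on the 12 others). Differences are log2 differences of signal with 2.37 added, fitted with limma over 22746 probe sets. A probe set is called when its Benjamini-Hochberg adjusted p is under 0.05. J0571 was higher at 555 probe sets (2.44%) and lower at 511 (2.25%), of which 434 and 429 differed by at least 2-fold, so that 4.69% were called in all; the median log2 difference over all probe sets was 0.03. A single gene is assigned to 280 of the higher and 253 of the lower probe sets, and only those are named. In such samples fewer cells of a type and less RNA per cell cannot be told apart.

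The 3 J0571 arrays were not alike. Replicate 2 was at least 4-fold above both other J0571 arrays at 91 probe sets and at least 4-fold below both at 53. The same counts were 1 and 1 for replicate 1, and 52 and 3 for replicate 3. Without replicate 2 the comparison called 673 probe sets higher and 533 lower; without replicate 1 it called 222 and 186, and without replicate 3 it called 251 and 237.

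Where replicate 2 stood apart, other lines often lay on its side. Of the 91 probe sets it held high, all 3 SCR arrays exceeded J0571 replicates 1 and 3 at 78 (85.7%, against 16.4% of all probe sets). For WOL the count was 62 (68.1%, against 22.9%), for GL2 21 (23.1%, against 16%) and for J3411 13 (14.3%, against 15.5%). Of the 53 probe sets it held low, all 3 arrays of the line lay below replicates 1 and 3 at 50 for SCR (94.3%, against 22.4%), 48 for WOL (90.6%, against 19.7%), 46 for GL2 (86.8%, against 25.9%) and 25 for J3411 (47.2%, against 22.5%). Since these probe sets were picked by their values on replicates 1 and 3, shares above the general level are favoured by the choice. AT4G11190, of the dirigent family that guides lignan and lignin coupling, had signals of 20.9, 1697 and 3.61 on J0571 replicates 1, 2 and 3. SCR gave 711 to 1479 and WOL 266 to 496, and both other lines stayed at or below 10.6. AT1G55210, another dirigent-like gene, had 345, 1512 and 293 in J0571, and AT5G04120, a phosphoglycerate mutase family gene, had 91.1, 1900 and 41.6. On all 3 genes replicate 2 lay within or above the SCR range and the other J0571 arrays lay below every SCR array. These genes were singled out after their values were seen, and the cause was not tested.

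Other genes were high on replicates 1 and 3 and low on replicate 2. A list of 46 genes known to be induced when oxygen is low was written after this was seen; 21 of them were measured. AT4G33560 had 597, 14.9 and 638 in J0571 replicates 1, 2 and 3 and 263, 499 and 17 in J3411, against 6.24 to 48.8 on the 9 arrays of SCR, WOL and GL2. AT4G27450 had 1786, 77.4 and 2332 in J0571 and 1453, 2731 and 22.6 in J3411, with 36.9 to 503 elsewhere. AT3G03270, a universal stress protein gene, had 2329, 294 and 2894 in J0571 and 3778, 4614 and 192 in J3411. In each case the high arrays were J0571 replicates 1 and 3 and J3411 replicates 1 and 2. Summed over the 21 genes, signal was 8593, 1854 and 10219 on the J0571 arrays, 11414, 13768 and 1395 on the J3411 arrays and 1805 to 3641 on the 9 others. With all arrays 0 of the 21 was called (smallest adjusted p 0.0667, limma; 4.69% of all probe sets were called). Without J0571 replicate 2, 7 were called higher, beside 673 of all 22746 probe sets. Without the J3411 line 5 were called higher, beside 542, and against the lines labelled Columbia 3 were, beside 850. Since the list was written after the pattern was seen, these counts and the sums are favoured by that choice. The count without J0571 replicate 2 leaves out the very array that set the pattern, so it tests nothing. ICL, the isocitrate lyase of the glyoxylate cycle, followed the same arrays with 324, 7.72 and 439 in J0571 and 150, 193 and 28.1 in J3411.

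Some genes were high on replicate 3 alone among the J0571 arrays, and 4 of them are given here. LHCB4.1, a light-harvesting protein of photosystem II, had 36.5, 32.1 and 255 on J0571 replicates 1, 2 and 3, and at most 44.6 on the 12 other arrays. PSAE-1, a photosystem I subunit, had 28.7, 20.2 and 230. RCA, the activase of Rubisco, had 41.5, 35.9 and 202. GSTU20, a glutathione transferase, had 29.8, 27.2 and 373 beside them. These 4 genes were picked after their values were seen; each was several-fold higher on replicate 3 than on any of the 14 other arrays.

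**Figure D1:**
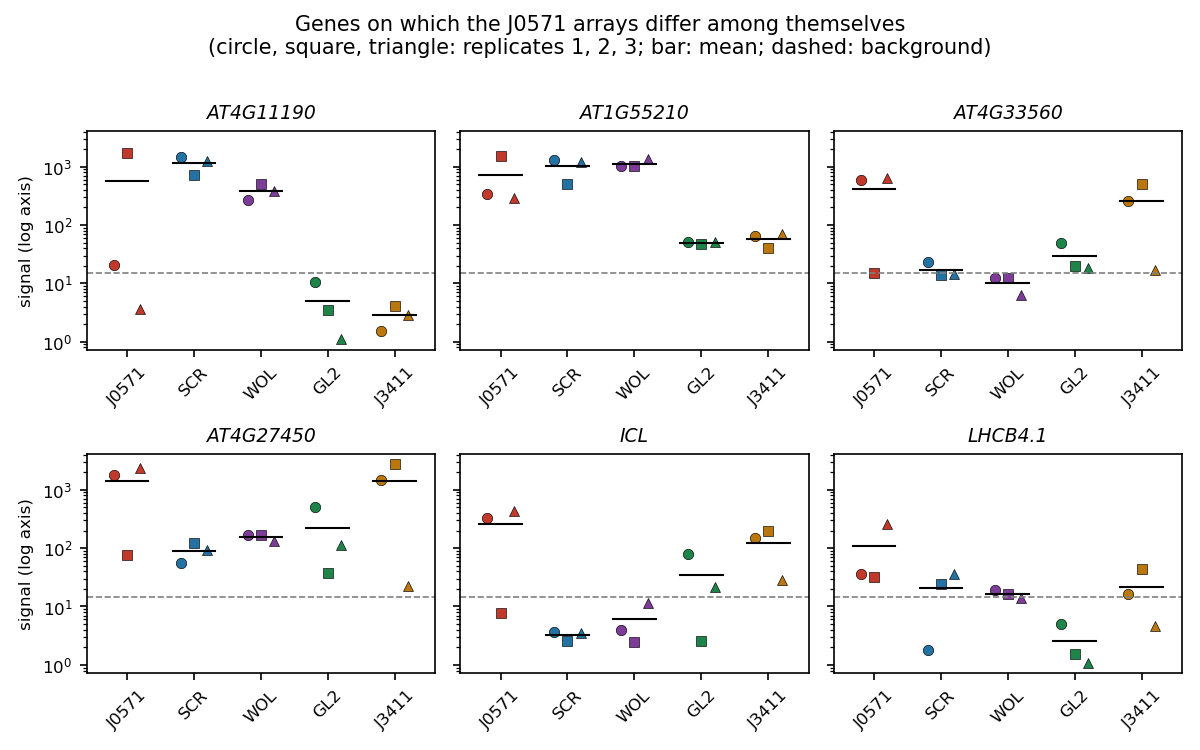
Signal on each array (log axis) of 6 genes that differ among the J0571 arrays, by marker line; circles, squares and triangles are replicates 1, 2 and 3, bars are means and the dashed line is background (14.8). J0571 replicate 2 is high for AT4G11190 and AT1G55210 and low for AT4G33560, AT4G27450 and ICL, for which J3411 replicate 3 is low too; J0571 replicate 3 is high for LHCB4.1.

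J0571 also shared signals with J3411 that the labelled tissues do not pair. The actin 3′ control read 252, 270 and 286 on the J0571 arrays and 182 to 206 on the J3411 arrays, against 1216 or more on the 9 arrays of SCR, WOL and GL2. The actin middle control was not low in J0571, with 2003 to 2412 against 1087 to 2961 on the 12 other arrays. AT4G29200 had 733, 547 and 606 in J0571 and 569 to 717 in J3411, while the 9 remaining arrays lay between 2.25 and 21.6. The nearest arrays of the 2 sets differed 25.3-fold with signals raised to background. AT1G72840, of the TIR-NBS-LRR immune receptor family, lay at 1.81, 4.21 and 3.31 in J0571 and at 2.85 to 11.2 in J3411, all below background, and at 40.3 to 74.8 elsewhere. AT2G14460, AT1G66660, AT3G19520 and AT4G22820 likewise were low on all 6 arrays of J0571 and J3411 and at least 2-fold higher on all 9 others.

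For probe sets that put J0571 and a single partner line apart from the 3 remaining lines by at least 4-fold between the nearest arrays, the counts were 3 low in both and 2 high in both with J3411. They were 0 and 1 with SCR, 0 and 0 with WOL, and 0 and 0 with GL2. At 2-fold they were 9 and 2 with J3411, 3 and 9 with SCR, 0 and 8 with WOL, and 0 and 0 with GL2. J3411 is labelled C24 and J0571 Columbia, and whether the shared signals follow genetic background was not tested. Against the lines labelled Columbia alone, WOL and GL2, J0571 was higher at 850 probe sets and lower at 1076.

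**Figure D2:**
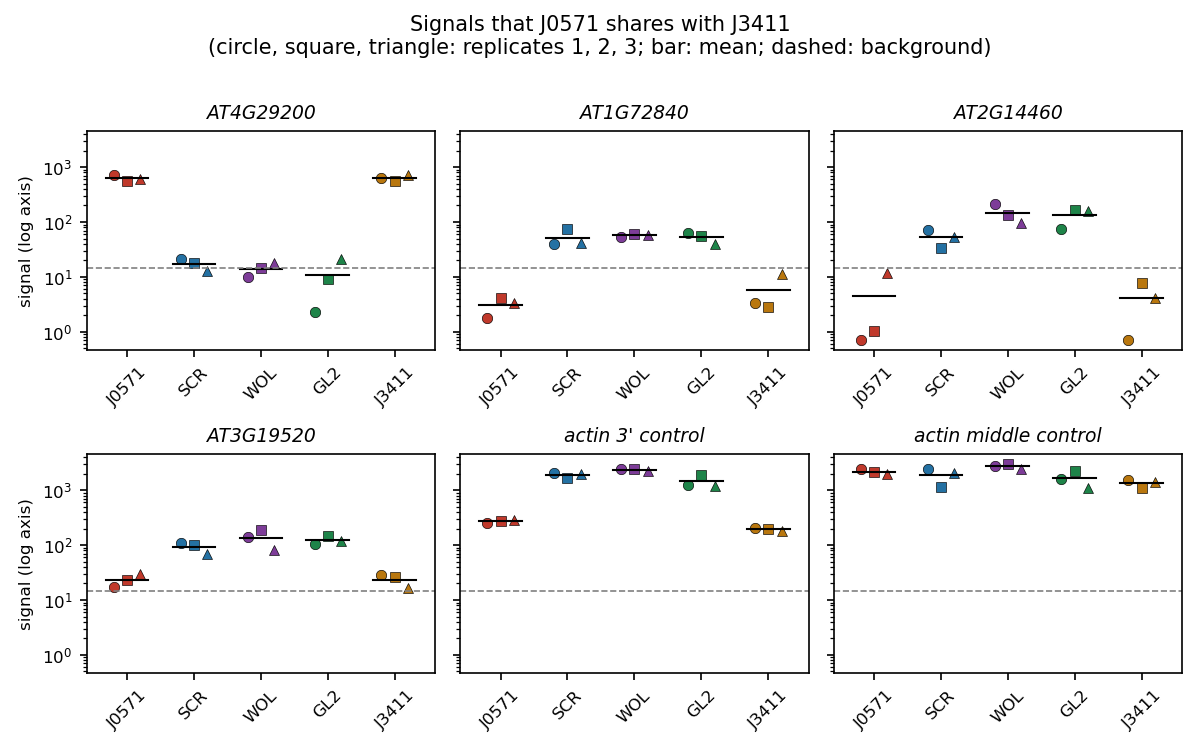
Signal on each array (log axis) of 4 genes and 2 actin control probe sets, by marker line; circles, squares and triangles are replicates 1, 2 and 3, bars are means and the dashed line is background (14.8). J0571 and J3411 lie together and apart from SCR, WOL and GL2 on AT4G29200, AT1G72840, AT2G14460, AT3G19520 and the actin 3′ control, and not on the actin middle control.

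AT1G62500, JKD and AT1G09750, listed for cortex and ground tissue, were higher in J0571, and the 3 other measured genes of that list were not called. Of 13 listed genes of cortex identity and ground tissue regulation, 6 were measured, 3 were higher (2.44% of all probe sets were) and 0 were lower, and the median log2 difference of the 6 was 1.70 (0.03 over all probe sets). AT1G62500, the CO2 gene whose promoter is a standard cortex marker, encodes a protein of the lipid transfer and 2S albumin superfamily. Its signal was 487, 97.3 and 673 on the J0571 arrays, against a lowest of 4.34, a median of 15.3 and a highest of 24.7 on the 12 others. The groups did not overlap, and J0571 replicate 2, the lowest of the 3, still exceeded every other array. The log2 difference was 4.24 ± 0.454 (SE, adjusted p = 5.38e-05, limma), and with signals raised to background J0571 was at least 18.4-fold higher.

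JKD had signals of 124, 67.1 and 70.7 in J0571. The 12 other arrays ran from 0.889 through a median of 11.4 to 40.8. SCR gave 16.7 to 40.8, WOL 19.6 to 28.8, and all 6 arrays of GL2 and J3411 lay below background. The log2 difference was 2.88 ± 0.317 (adjusted p = 6.84e-05, limma), at least 4.28-fold, and J0571 exceeded each line on its own, by 1.48 over SCR (adjusted p = 0.0323) and 1.73 over WOL (adjusted p = 0.0244).

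AT1G09750, an aspartyl protease gene whose promoter drives a marker of maturing cortex, had 139, 258 and 231 in J0571, and 10.3, 18.6 and 132 as lowest, median and highest of the others. SCR alone among the other lines approached J0571, with 99.5 to 132, and the log2 difference to SCR of 0.84 was not called (adjusted p = 0.106, limma). The transporter gene AT3G21670, which belongs to the nitrate and peptide transporter family, had 2.58, 54.7 and 3.91, so that replicate 2 stood apart here as well. BIB (AT3G45260), a zinc finger relative of JKD, had 26, 21 and 15.4, and SCL23 (AT5G41920), a relative of SCARECROW, had 16.5, 13.2 and 25.7. These 3 genes overlapped the other lines and were not called. The 3 called genes were called under each of the 27 alternatives run.

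**Figure D3:**
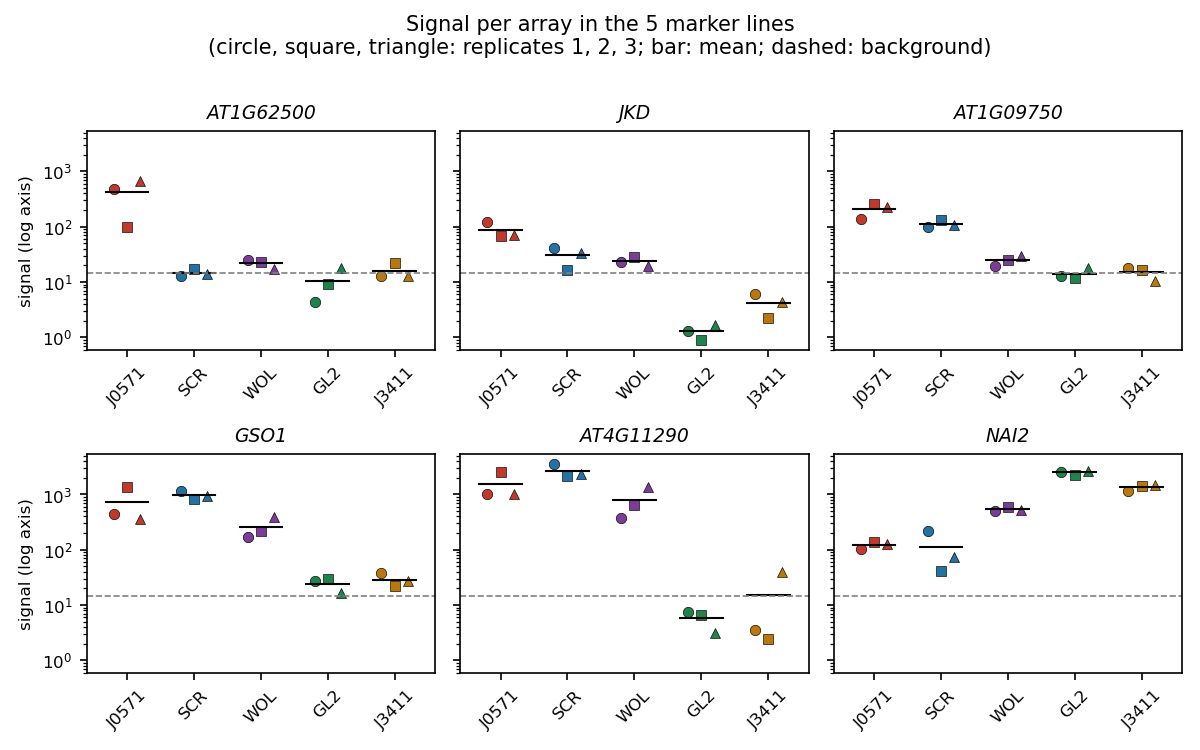
Signal on each array (log axis) of 6 genes in the 5 marker lines; circles, squares and triangles are replicates 1, 2 and 3, bars are means and the dashed line is background (14.8). AT1G62500 is high in J0571 alone, JKD is highest in J0571, AT1G09750 is high in J0571 and SCR, GSO1 and AT4G11290 are high in J0571, SCR and WOL, and NAI2 is lowest in J0571 and SCR.

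The measured genes of the endodermal barrier were high in J0571, SCR and WOL. Of 13 listed, 4 were measured and all 4 were higher than the mean of the other lines (2.44% of all probe sets were), with a median log2 difference of 2.55. GSO1, the receptor kinase that surveys whether the Casparian strip is closed, had 449, 1374 and 357 in J0571, and 16.4, 104 and 1149 as lowest, median and highest of the others. The SCR arrays (819 to 1149) lay above J0571 replicates 1 and 3, the WOL arrays (171 to 397) near them, and GL2 and J3411 lay at or below 37.8. Its log2 difference was 2.37 ± 0.338 (adjusted p = 0.000615, limma), 5.39-fold. AT4G11290, a class III peroxidase of the barrier list, had 1014, 2590 and 1035 against 2148 to 3509 in SCR, 370 to 1343 in WOL, and at most 39.7 in both remaining lines.

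DIR9 (AT2G39430), a dirigent protein, had 853, 2587 and 631 in J0571, and 1380 to 2235 in SCR. SGN1 (AT1G61590), the cytoplasmic kinase that acts below GSO1, had 243, 1063 and 176, and 409 to 959 in SCR. On all 4 genes J0571 replicate 2 was the highest J0571 array by at least 2-fold, and the list summed to 2560, 7615 and 2199 on the J0571 arrays. It summed to 4757 to 7852 in SCR, 1090 to 3127 in WOL and 52.8 to 139 in GL2 and J3411. No member differed from SCR past the threshold (adjusted p 0.383 to 0.526) or from WOL (adjusted p 0.121 to 0.806, limma). Without J0571 replicate 2, 3 of the 4 were called and SGN1 was not, nor was it without the J3411 line (adjusted p up to 0.112).

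Outside the list, 4 genes singled out after their values were seen were likewise high in J0571, SCR and WOL. AT5G66390, a class III peroxidase, had 947, 3332 and 755 in J0571, 1925 to 2780 in SCR and 564 to 1432 in WOL. AT1G44970, another class III peroxidase, had 1198, 2732 and 1077, AT4G13580, a dirigent-like gene, had 1053, 3346 and 855, and AT3G22620, a lipid transfer protein gene, had 2014, 4771 and 1599. GL2 and J3411 stayed at or below 47.7 on all 4, and the log2 differences to the mean of the other lines were 3.56 to 3.81. The reference annotation gives 6 measured genes a peroxidase number, a part of the class III family that leaves out AT4G11290, AT1G44970 and AT3G49960. Of these 6, AT5G66390 and Prx37 were higher (2.44% of all probe sets were), 0 were lower, and the median log2 difference was 0.22. Prx37 had 657, 365 and 670 in J0571 and 834 to 1259 in SCR; here replicate 2 was the lowest J0571 array.

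The label of quiescent centre could be checked on 2 genes only. BBM, an AP2-type regulator of stem cell identity, had 65, 48.1 and 39.8 in J0571, and 0.769 to 56.2 on the others, where WOL and J3411 overlapped it. It just missed the threshold (log2 difference 1.53 ± 0.421, adjusted p = 0.0507, limma). Under the 27 alternatives run, BBM was called higher in 9 and not called in 18. AGL42, a MADS-box gene, had 13.4, 24.1 and 7.17 in J0571, under every SCR array (38.7 to 56.6) and WOL array (50.4 to 65.4). Of 12 listed suberin synthesis genes only 2 were measured, the lipase-like AT1G74460 and AT5G37690. They gave 11.6 to 21 in J0571, around background, and 0 were called. Over all probe sets 4.69% were, and 0 of 2 is near that share.

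No listed marker of stele, root hair, epidermis or root cap was called higher in J0571 in the main fit (2.44% of all probe sets were). With 1 to 7 genes measured per list, 0 calls are near that share. In the stele list PHV and LHW, a HD-ZIP and a bHLH regulator, were measured and not called. They went opposite ways, with log2 differences of -0.92 for PHV and 0.79 for LHW. Their sum, which hides this, was 131 to 135 in J0571, 143 to 250 in WOL and 55.8 to 119.8 in the other lines. LHW was called higher when arrays were blocked by spike-in class. The 4 root hair genes, among them the hair expansins EXPA7 and EXPA18, summed to 370 to 401 in J0571 against 175 to 1220, with 0 called. Of these, SCN1 was called higher without J3411 replicate 3. The hair peroxidase gene AT3G49960 was below background on all 3 J0571 arrays. TRY, a patterning gene of the epidermis, had 11.9, 15.6 and 2.37 in J0571 and 59.3 to 97.5 in GL2 (adjusted p = 0.0702, limma, for the whole comparison). Its J0571 replicates 1 and 3 were below background. Under the 27 alternatives run, TRY was called lower in 6, AT3G49960 in 2, and PHV and EXPA18 in 1 each.

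All 7 measured root cap genes had lower fitted values in J0571, with a median log2 difference of -1.09 (0.03 over all probe sets). In the main fit 1 was called lower (2.25% of all probe sets were). With arrays blocked by spike-in class 4 were, beside 779 of all probe sets. Without the SCR line 4 were, beside 899, and without the J3411 line 0 were, beside 544. The gene called in the main fit was sks15, a multicopper-oxidase-like gene, with 143, 59.1 and 156 in J0571 and 1653 to 3163 in J3411. WOL (156 to 314) and SCR (43.9 to 338) overlapped J0571, and the log2 difference was -2.13 ± 0.470 (adjusted p = 0.0153, limma). The call was lost without J0571 replicate 1, without J0571 replicate 2 or without the J3411 line, the adjusted p then reaching 0.159.

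**Figure D4:**
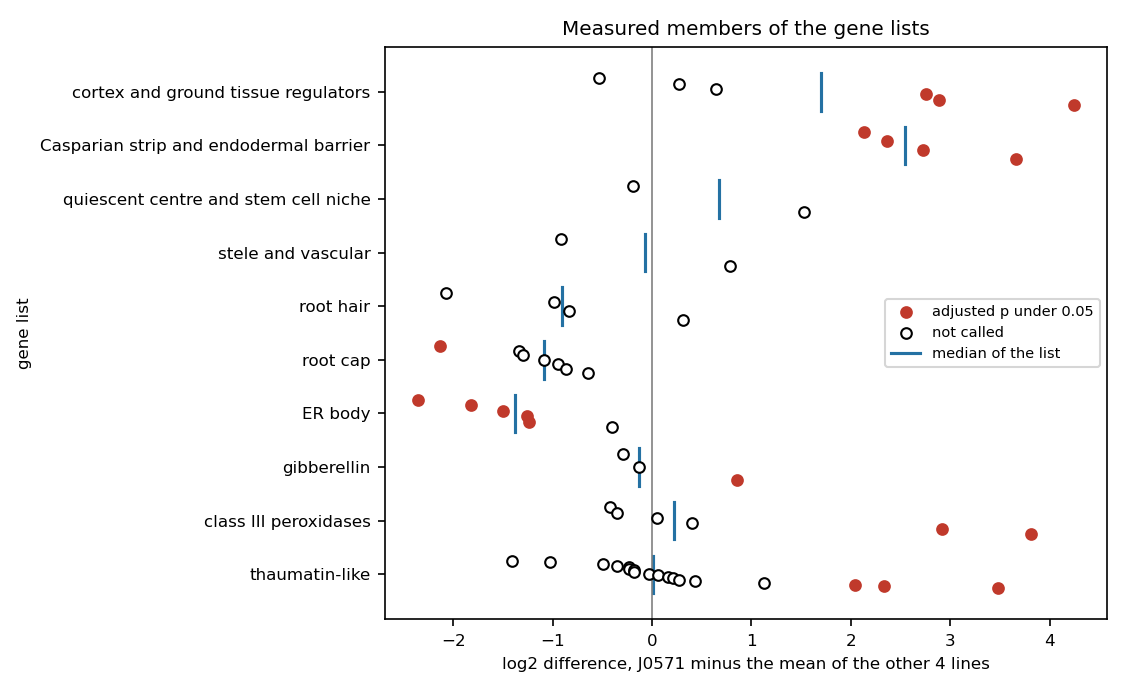
Log2 difference of J0571 from the mean of the other 4 lines for each measured member of 10 gene lists; filled points have an adjusted p under 0.05, open points do not, and blue bars are list medians. All 4 barrier genes and 3 of 6 cortex genes are called higher, 5 of 6 ER body genes are called lower, and thaumatin-like genes hold 3 called members at the upper end of a list centred near 0.

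Rises were ranked by size only among called genes whose 3 J0571 arrays all lay above all 12 others. Most of the 15 largest so ranked lay outside the lists above. Genes as high in SCR as in J0571, like those of the barrier, could not enter, whatever their log2 difference. Of all probe sets, 192 (0.844%) had all 3 J0571 arrays above all 12 others, and 131 (0.576%) were also called. AT2G15560 came first in this ranking, with 732, 569 and 812 in J0571 and 2.29, 28.3 and 205 as lowest, median and highest of the others. Its log2 difference was 4.73 ± 0.748 (adjusted p = 0.00139, limma), at least 22.8-fold, and the SCR arrays disagreed among themselves with 205, 4.25 and 2.29.

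AT5G45210, of the TIR-NBS-LRR immune receptor family, had 762, 532 and 541 in J0571. SCR came close with 293 to 473, WOL had 45.2 to 67.6, and GL2 and J3411 were below background. The log2 difference was 4.45 ± 0.273 (adjusted p = 4e-07, limma), and J0571 was not called against SCR alone (adjusted p = 0.339). AT5G45200, which encodes the same kind of receptor and is the neighbouring gene in the TAIR10.1 annotation, had 80.1, 111 and 105 in J0571, with 25.4 to 132 in SCR and at most 21.4 in all other lines (log2 difference 2.42, adjusted p = 0.00578). The neighbour was looked up after its value was seen.

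AT2G45180, a second member of the lipid transfer and 2S albumin superfamily, had 365, 530 and 530 in J0571, and 9.96, 59.5 and 181 as lowest, median and highest of the others. All 12 other arrays lay below every J0571 array, as the choice of ranked genes required, with SCR (106 to 181) the nearest line. The log2 difference was 3.01 ± 0.277 (adjusted p = 1.34e-05, limma), at least 8.25-fold.

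Thaumatin-like proteins, secreted proteins related to pathogenesis-related family members and osmotins, appeared 2 times among the 15 largest rises without overlap. AT1G73620 had 1232, 1101 and 1061 in J0571, against 242 to 731 in SCR, 101 to 268 in WOL, 40.3 to 60 in J3411 and 13.2 to 43.7 in GL2. AT2G28790 had 1854, 938 and 1334, with WOL (544 to 914) nearest, and ATLP-1 had 439, 267 and 292, with WOL (136 to 256) nearest as well. In each case the J0571 arrays lay above all 12 others, and the lowest array was a GL2 array. For AT1G73620 and AT2G28790 the lack of overlap was required by the choice of genes. Of the 18 family members measured, a list written after this was noticed, these 3 were higher (2.44% of all probe sets were), 0 were lower, and the median log2 difference was 0.01. The 2 genes that prompted the list are among these 3, so the count is favoured by the choice. AT4G38660 had 356, 275 and 253 in J0571, inside the WOL range of 348 to 389 at replicate 1, and was not called.

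TRM24, which carries a motif that recruits TON1 to the division-plane cytoskeleton, had 31.2, 13.3 and 23.2 in J0571, so that replicate 2 was below background, as were all 12 other arrays. BGLU43, a beta-glucosidase family gene, had 32.3, 26.7 and 35.4, and 2 J3411 arrays were also above background. AT1G60160, of the KUP potassium transporter family, had 39.7, 21.3 and 41.7, with 11 of the 12 other arrays below background. For these 3 the rise over background was small, at least 1.49-fold, 1.98-fold and 2.20-fold, although the log2 differences fitted were 2.64, 2.63 and 2.23. AT1G60160 was not called without J0571 replicate 1 or without replicate 3 (adjusted p up to 0.0878).

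The remaining genes of the 15 largest rises without overlap were AT4G16447, AT1G55360, AT2G23700 and AT3G13175. AT4G16447 had 166, 197 and 155 in J0571, just above SCR and WOL (32.9 to 139), and was below background on 5 arrays of GL2 and J3411. AT1G55360 had 391, 286 and 355, and 7.22 to 135 on the others. AT2G23700 had the most even J0571 arrays of the 4, with 116, 111 and 105, and 2.70 to 52.6 on the others. AT3G13175 had 154, 93.9 and 190, with SCR replicate 2 at 93.5; its call was lost without J0571 replicate 1 or replicate 3.

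**Figure D5:**
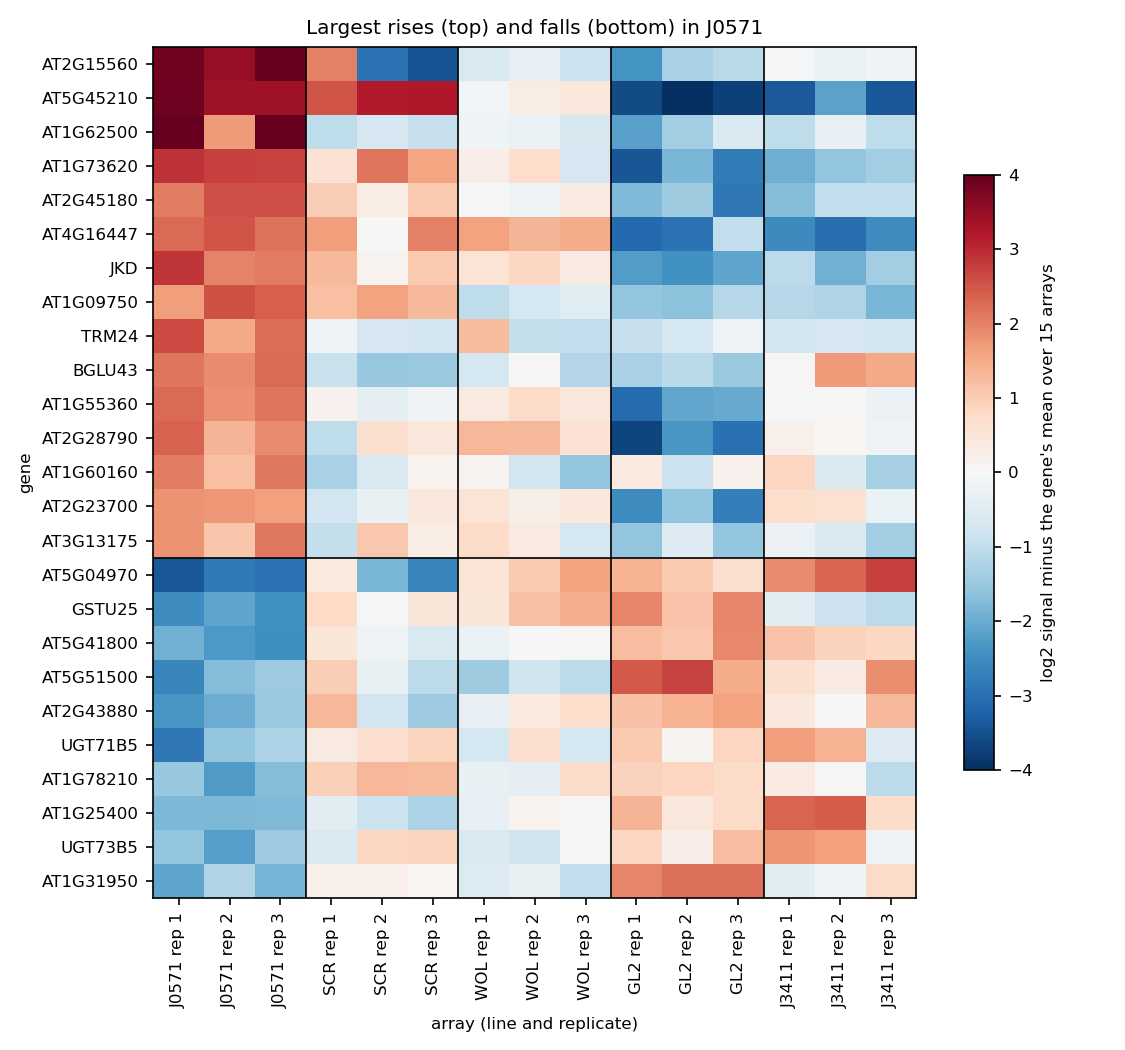
Log2 signal (2.37 added) of the 15 largest rises and the 10 largest falls in J0571 on each of the 15 arrays, each gene centred on its mean over the arrays (red above, blue below). Genes were ranked among those called whose 3 J0571 arrays did not overlap the 12 others. By that choice the 3 J0571 columns are red in the upper block and blue in the lower block. SCR comes nearest to J0571 on AT5G45210, AT1G73620 and AT1G09750.

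A stricter reading asked for a call against each line separately. J0571 was higher than each of the 4 lines at 30 probe sets (0.132%), 12 of them with 1 gene, and lower than each at 34 (0.149%), 12 with 1 gene. The higher count was 8 without J0571 replicate 1, 51 without replicate 2, 11 without replicate 3, 61 without the J3411 line and 76 without the SCR line. Beside AT2G15560, AT1G62500, AT2G45180, AT1G55360, JKD and TRM24, the higher group held AT4G03140, AT2G46230, AT1G29980 and AT1G64405 among its first 10 genes.

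AT2G46230 had 1458, 987 and 1341 in J0571 and 330, 502 and 693 as lowest, median and highest of the others. Every J0571 array lay above every other array, at a log2 difference of 1.31 ± 0.203 (adjusted p = 0.00115, limma), 2.49-fold. AT4G03140 had 193, 108 and 184 against 33.8 to 79.5, and AT1G29980 had 509, 331 and 388 against 40 to 218. AT1G64405 was near background, with only J0571 replicate 1, at 22, above it and the 12 other arrays at or below 8.99, and was not called without J0571 replicate 1 (adjusted p = 0.0513).

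AT5G04970, AT5G51500 and AT2G43880, genes of pectin modification, were among the 10 largest falls without overlap between J0571 and the other arrays. Called falls with overlap were not ranked, among them AT5G26260 with a log2 difference of -4.09. All 3 J0571 arrays lay below all 12 others at 155 probe sets (0.681%), and 117 of these (0.514%) were called. AT5G04970, a pectin methylesterase gene, was below background on all 3 J0571 arrays, at 0.677, 2.21 and 1.80, while J3411 had 117 to 210, WOL 44.6 to 95.9 and GL2 47.6 to 81.7. SCR split into 40, 6.64 and 2.94, of which 2 arrays were below background as well. The log2 difference was -3.82 ± 0.455 (adjusted p = 0.000138, limma), at least 4.08-fold lower.

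AT5G51500, another pectin methylesterase gene, lay between 11.9 and 29 on the J0571 arrays, with 29.7, 119 and 557 as lowest, median and highest of the others, with GL2 highest and WOL (29.7 to 47.9) nearest to J0571. Its neighbour AT5G51490, of the same family, was below background in J0571 (1.85 to 3.92) and at 67.4 to 105 in GL2. AT5G51520, a pectin methylesterase inhibitor family gene nearby in the same annotation, had 11.5, 20.7 and 35.7 against 13.9 to 406, a call that was lost without J0571 replicate 1 or without the J3411 line. AT2G43880, of the pectin lyase superfamily, had 16.8, 21.9 and 31.5 against 32.9 to 288. AT5G51490 and AT5G51520 were singled out as neighbours after their values were seen.

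GSTU25, a glutathione transferase, had 109, 141 and 116 in J0571, and 303, 980 and 2418 as lowest, median and highest of the others. No array of another line came within 2-fold of a J0571 array, with J3411 (303 to 451) nearest and GL2 (1367 to 2418) farthest. The log2 difference was -2.93 ± 0.241 (adjusted p = 7.71e-06, limma), 7.73-fold lower, and J0571 was below each of the 4 lines.

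Of 52 UDP-glycosyltransferases measured, enzymes that attach sugars to hormones and defence compounds, 7 were lower (2.25% of all probe sets were), 2 were higher (2.44% of all were) and 43 were not called, with a median log2 difference of -0.05. UGT73B5 had 63.3, 40 and 68.5 in J0571, against 110 to 658, and its neighbour UGT73B4 had 89.7, 145 and 66.5, against 207 to 810. On both genes every J0571 array was below every other array, which for UGT73B5 was required by the choice of ranked genes. UGT71B5 was below background on all 3 J0571 arrays (0.953 to 7.60) and at 12.5 to 75.2 on the others. UGT73D1 and UGT73C7, which also lie next to each other, were below background in J0571 too, at 2.37 to 10.7 and at 5.10 to 10.6, though GL2 arrays reached as low as 5.65 on the first and a J3411 array 9.05 on the second. UGT85A2 and UGT87A2 fell by 1.28 and 1.31 on the log2 scale. The 2 higher members were UGT74D1, with 177, 536 and 227, and UGT71B1, with 74.6, 88.7 and 47.3. Leaving out J0571 replicate 1 left 3 lower and 1 higher, beside 186 and 222 of all probe sets. Leaving out replicate 2 left 8 lower and 0 higher, beside 533 and 673. Leaving out replicate 3 left 5 lower and 2 higher, beside 237 and 251. Of 241 cytochrome P450s listed, 26 were measured and 0 were called (smallest adjusted p 0.214, limma). Over all probe sets 4.69% were called, and 0 of 26 is near that share.

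Among the other large falls without overlap, AT5G41800, of an amino acid transporter family, was below background on all 3 J0571 arrays (7.51 to 11.8). It lay at 33.1 to 201 on the others. AT1G78210, an alpha/beta hydrolase gene, had 66.6, 38.5 and 56.9 against 93.4 to 489. AT5G41800 and AT1G78210, like GSTU25, were lower in J0571 than in each line tested alone. AT1G25400 was the most even, with 44.3, 43.7 and 44.5 in J0571 and 64.5 to 861 elsewhere, the highest in J3411. AT1G31950, a terpene synthase gene, had 39.1, 76.4 and 47.7 against 88 to 834, the highest in GL2.

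Genes of the ER body, a compartment of Brassicaceae cells filled with beta-glucosidase for defence, had lower fitted values in J0571. Of 6 measured, 5 were lower (2.25% of all probe sets were), 0 were higher, and the median log2 difference was -1.38. NAI2, needed to form the compartment, had 104, 140 and 126 in J0571, within the SCR range of 40.8 to 221, and far below WOL (508 to 584), J3411 (1171 to 1505) and GL2 (2288 to 2623). Its log2 difference was -2.36 ± 0.314 (adjusted p = 0.000350, limma), 5.16-fold lower. PYK10, the beta-glucosidase itself, had 866, 1152 and 910 in J0571, between SCR (521 to 773) and WOL (1222 to 1827), with 4146 to 6776 in J3411 and GL2. NAI1, the bHLH factor that switches the system on, had 63.6, 90.8 and 75.3, about the level of WOL (66.7 to 97.3) and below SCR (114 to 204).

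The lectins JAL33 and JAL34, which bind PYK10 complexes and are encoded side by side, had 101 to 115 and 379 to 880 in J0571. SCR lay at 32.7 to 81.3 on JAL33 and at 397 to 1679 on JAL34, and J3411 lay at 738 or more on both. Both calls were lost without J0571 replicate 1 or without replicate 3, which left 3 of the 6 genes called, and JAL33 was also lost without the J3411 line. JAL22, with 9.70 to 30.5, was not called.

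Gibberellin acts in the endodermis of the root, and its 3 receptors were measured. GID1A was higher, with 108, 80 and 132 in J0571 against 36.7 to 82.3 (log2 difference 0.85 ± 0.214, adjusted p = 0.0322, limma), and replicate 2 overlapped the others. The call was lost in 8 of 27 alternatives, among them leaving out J0571 replicate 1 or 3, J3411 replicate 1, or WOL replicate 2 or 3, with adjusted p up to 0.244. GID1B had 147 to 216 and GID1C 4.72 to 27.1 in J0571, and neither was called.

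Further lists held no called member, beside 4.69% of all probe sets. For lists of 3 to 6 genes, 0 calls are near that share. The lists were 3 glucosinolate genes, 3 auxin genes, 4 touch and wound genes, 6 heat shock genes, 5 cell division genes and 3 replication and histone genes. The smallest adjusted p were 0.256, 0.579, 0.136, 0.346, 0.205 and 0.648 in that order (limma). Some members were called under alternatives. Without the SCR line, GTR1 (glucosinolate) and LBD16 (auxin) were called higher and the histone gene HTB2 lower. HTB2 was also called lower against Columbia lines only, and the heat shock gene ATHSP22.0 without SCR replicate 1. The heat shock genes summed to 489 to 882 on the J0571 arrays and reached 6149 and 9055 on SCR replicates 2 and 3, the arrays whose spike-in controls were also low. Listed genes of nutrient transport, flavonoid synthesis and triterpene clusters were not analysed here.

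Called genes that are neighbours in the TAIR10.1 gene order and moved the same way formed 5 pairs among 274 higher genes and 8 pairs among 251 lower genes, out of 5814 neighbouring pairs with both members measured. How many such pairs would arise without any link between neighbours was not worked out, so the counts are descriptive only. Beside those already described, the higher pairs included AT5G67200 with IRX15-L, a gene of xylan synthesis, and AT2G40960 with MYBC1. The lower pairs included UGT87A2 with AT2G30150, and IVD, isovaleryl-CoA dehydrogenase, with AT3G45310.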

How the data were processed

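The authors deposited 1 intensity per probe set and array, made with MAS5 per the submitters' processing notes, which name no release or setting; no further scaling was applied. The pseudocount of 2.37 is the 10th percentile of all values. After 64 control probe sets were left out, a linear model with a mean per line was fitted to the 15 arrays in limma 3.58.1 under R 4.3.3, with variances moderated along intensity. The fit was tested on simulated data. The annotation gives 1 gene to 13513 probe sets, several to 503 and none to 8730; each named gene is described by its brightest probe set. Named genes are the 15 largest rises and 10 largest falls whose 3 J0571 arrays lie on the same side of all others, 10 genes above each line, called list members and the 4 of smallest adjusted p, genes shared with another line, and genes said to be singled out. Where low-side arrays are below background, a fold of geometric means with signals raised to background is "at least". The comparison, markers and lists were chosen with earlier results of these data known. Same-numbered arrays of different lines correlated by -0.218 to 0.120 in their deviations from line means, so numbers pair no samples.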

Additional observations from a re-analysis of the deposited data

How the results depend on the processing

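Of 63 called genes described, 46 kept their call and direction under every alternative run and 17 lost the call under at least 1. With each array left out in turn, the count higher ran from 222 (without J0571 replicate 1) to 688 (without SCR replicate 1), and the count lower from 186 to 694 with the same arrays left out. The count above each line ran from 8 (without J0571 replicate 1) to 51 (without J0571 replicate 2) and the count below each line from 14 to 52, the latter without J0571 replicate 2; both also moved by over 1.5 times without WOL replicate 1 (18 and 20), WOL replicate 2 (12 and 16), WOL replicate 3 (12 and 14) or J0571 replicate 3 (11 and 15), and the count below each also without J3411 replicate 1 (21). Against Columbia lines only, the counts were 850 higher, 1076 lower, 198 above each and 348 below each. Blocking on the spike-in class, 779 were lower and 14 above each line, and with high-class arrays only, 10 were above each. Without the J3411 line, 61 were above and 93 below each line. Without the SCR line, 899 were lower, 76 above and 130 below each. AT4G11190 turned from a log2 difference of 0.03, not called, to -2.36 (adjusted p = 0.0126, limma) without J0571 replicate 2, and to 1.72 without replicate 3. For probe sets shared with a single line, the 2-fold limit gave 9 low with J3411, 3 low and 9 high with SCR and 8 high with WOL. Without the background floor there were 5 low with J3411, 1 low with SCR and 1 high with WOL. The cause of these changes was not tested. With replicate number as a replicate block, 444 were higher, 414 lower, 26 above each and 25 below each, and 1 of 15 arrays correlated best with its own number. Genes below background on the low side have only a bound, and 3 arrays per line limit every difference.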
